A study of Mus musculus with 16 samples.

Results

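The genes described here are 10 genes of renal calcium and magnesium handling: Trpm6, Trpv5, Calb1, S100g, Slc8a1, Pvalb, Egf, Umod, Casr and Cnnm2. They were chosen by name, and all 10 were present both in the cortex table of 34264 genes and in the glomerular table of 24722 genes. RNA had been sequenced from renal cortex and from isolated glomeruli, the capillary tufts that filter blood, of wild-type (WT) mice aged 24 weeks. The 4 groups were control cortex, diabetic cortex, control glomeruli and diabetic glomeruli, with 4 libraries each, all of batch 1. Diabetic mice had received HFD/STZ, a high-fat diet with streptozotocin, which destroys pancreatic beta cells. Diet, toxin and hyperglycaemia are therefore not separated, and "diabetic" below stands for all of them together. Nothing in the labels says that the libraries of a group are from different animals; p-values thus rest on the spread among these libraries alone, part of which may be technical.

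The kidney recovers filtered calcium and magnesium along the tubule. In the thick ascending limb of the loop of Henle both ions cross between the cells, under the control of the calcium-sensing receptor. In the distal convoluted and connecting tubules they cross through the cells: channels in the urinary membrane let them in, binding proteins buffer calcium in the cytosol, and exchangers and pumps on the blood side let them out. The hormone EGF stimulates the magnesium channel, and uromodulin, the most abundant protein of normal urine, is made by the thick ascending limb.

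Control cortex libraries held 57473100 to 69947387 counts and diabetic ones 60628981 to 72352656. Control glomerular libraries held 40001932 to 41876031 counts and diabetic ones 36339294 to 40696477. In glomeruli, control libraries 3 and 4, and likewise diabetic libraries 1 and 4, resembled each other over 5 times more closely than other pairs of the group did. Their chi-square per gene was 2.76 against 45.7 to 84.4, and 6.69 against 66.2 to 97.9. Each such pair was summed and counted as 1 sample (3+4 and 1+4), which left n = 3 glomerular samples a group against n = 4 cortex libraries. The labelled tissues were checked against markers: the summed level of 10 podocyte markers was 2243 to 5877 CPM (counts per 1e+06 reads) in glomeruli and 329 to 405 CPM in cortex. The summed level of 12 proximal tubule markers was 18984 to 31456 CPM in cortex and 71.0 to 91.9 CPM in control glomeruli. Among diabetic glomeruli it was 99.3 CPM in sample 2, but 499 CPM in sample 3 and 1042 CPM in sample 1+4. In cortex, control library 4 stood apart for 8 thick ascending limb markers, at 2601 CPM against 1065 to 1360 CPM in the other controls and 851 to 1346 CPM in diabetic libraries.

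Per length of gene, Umod, Egf and the calbindin genes S100g and Calb1 stood above the other members. In control cortex, in the authors' length-scaled FPKM, Umod was highest at 1105 ± 412 (SD, n = 4), followed by S100g at 369 ± 93.1, Egf at 152 ± 35.2 and Calb1 at 94.0 ± 17.4. Pvalb stood at 12.2 ± 2.24 FPKM. Casr (7.42 ± 1.45), Slc8a1 (7.07 ± 1.56), Cnnm2 (6.84 ± 0.333) and Trpv5 (6.35 ± 0.733) followed, and each of these overlapped the next in its library values. Trpm6 was the lowest member at 2.27 ± 0.321 FPKM. In diabetic cortex Calb1 (105 ± 7.99) and Egf (82.6 ± 18.7) had changed places in this order, with overlapping libraries, and Casr at 4.10 ± 0.521 FPKM stood below Trpv5 at 6.56 ± 1.06.

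In renal cortex 4 of the 10 genes differed between diabetic and control mice: Egf and Casr fell and Pvalb and Cnnm2 rose. Egf and Casr stood at about the same fraction of their control level, 0.535 and 0.541, whereas Umod, made in the same nephron segment as Casr, did not pass the test. The magnesium channel Trpm6 and the calcium channel Trpv5 had log2 fold changes near 0, and Calb1, S100g and Slc8a1 did not pass either. Over all 19228 genes tested in cortex 20.1% were called (edgeR's quasi-likelihood test, Benjamini-Hochberg adjusted p under 0.05), 10.8% higher and 9.29% lower. The median log2 fold change was -0.01 for the 10 genes and -0.00 for all genes. The libraries of the groups did not overlap for the same 4 genes, beside 24.9% of all genes tested. In bulk samples such as these, fewer cells of a type and less RNA per cell cannot be told apart.

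**Figure D1:**
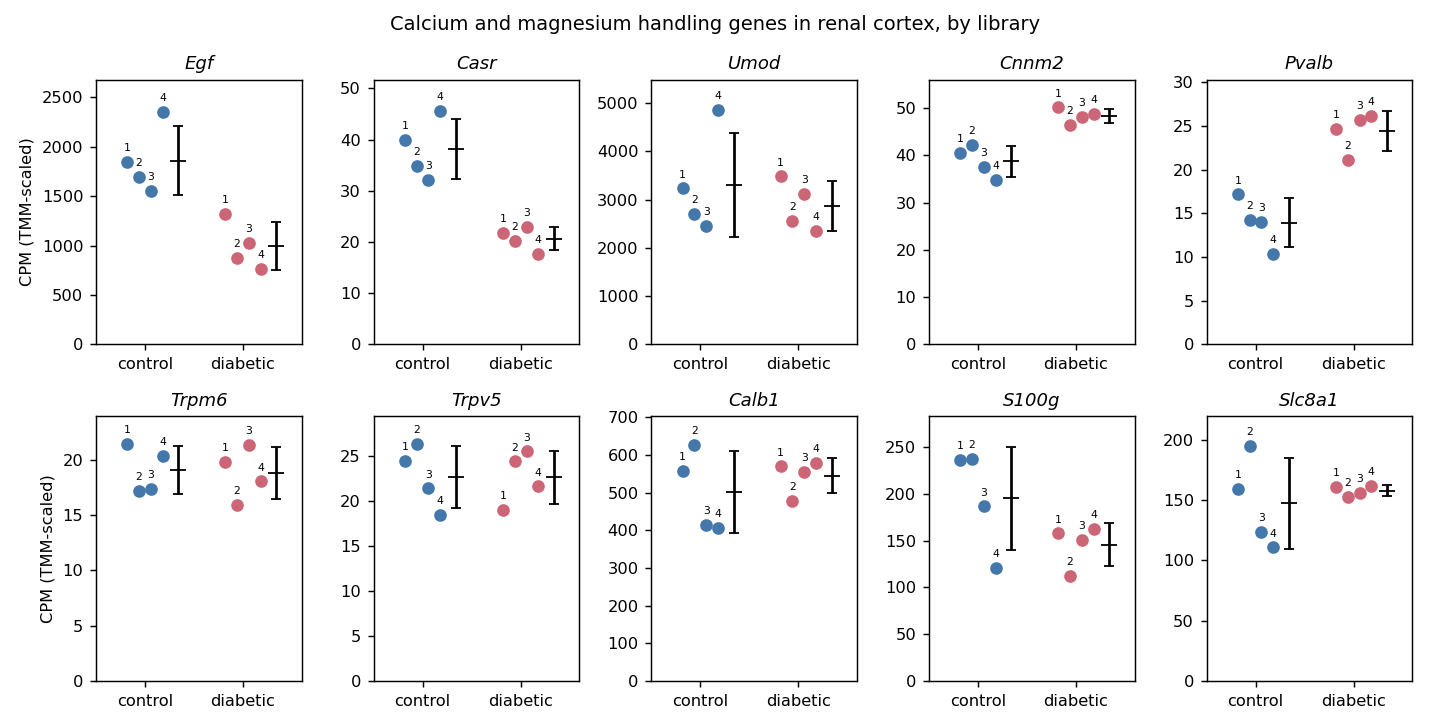
Level of each gene in renal cortex, in CPM on TMM-scaled library sizes, by library (points numbered by replicate), with mean and SD (bars, n = 4 a group). Egf and Casr are lower and Cnnm2 and Pvalb higher in every diabetic library than in any control library, and control library 4 is the highest for Egf, Umod and Casr.

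Egf, Casr and Umod are the members of the loop of Henle and the secreted proteins. Egf encodes the precursor of epidermal growth factor, which distal tubule cells release. Casr encodes the calcium-sensing receptor, which in the thick ascending limb lowers calcium and magnesium recovery when blood calcium is high, and Umod encodes uromodulin. The 250 bases before the start site of each are shown because these genes parted in cortex. They are from RefSeq on GRCm38.p6, read 5′ to 3′ on the strand of the gene, all 3 on the minus strand, at chr3:129755323-129755572 for Egf, chr16:36562135-36562384 for Casr and chr7:119479263-119479512 for Umod. All are in lower case, since neither of the motifs searched on both strands matched.
Egf: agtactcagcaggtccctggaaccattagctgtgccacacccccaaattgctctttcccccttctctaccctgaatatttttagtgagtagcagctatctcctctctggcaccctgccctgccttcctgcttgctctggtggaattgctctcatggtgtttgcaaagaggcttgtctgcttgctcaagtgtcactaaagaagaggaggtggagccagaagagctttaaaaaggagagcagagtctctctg
Casr: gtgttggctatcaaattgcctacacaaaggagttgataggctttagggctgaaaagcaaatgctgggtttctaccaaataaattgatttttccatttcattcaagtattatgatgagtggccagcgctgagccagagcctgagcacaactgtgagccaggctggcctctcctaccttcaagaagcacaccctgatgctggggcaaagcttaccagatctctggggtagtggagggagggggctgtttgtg
Umod: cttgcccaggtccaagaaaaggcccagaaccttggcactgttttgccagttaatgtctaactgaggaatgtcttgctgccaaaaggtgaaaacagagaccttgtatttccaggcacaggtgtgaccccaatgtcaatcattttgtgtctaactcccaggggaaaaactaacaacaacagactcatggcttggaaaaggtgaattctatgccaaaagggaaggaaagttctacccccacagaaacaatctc
The motifs were the core of the TATA box (TATAAA) and the core hexamer of nuclear receptors such as the vitamin D receptor (AGGTCA), which are present in 12.4% and 14.0% of the 32851 promoter windows of this length. A further Egf start site listed by RefSeq matched neither. No match says only that these letters are not in this window.

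Egf (GRCm38 chromosome 3, 129677565 to 129755316, minus strand) stood at 1845, 1691, 1549 and 2356 CPM in control libraries 1 to 4 and at 1319, 875, 1030 and 759 CPM in diabetic libraries 1 to 4. The highest diabetic library lay below the lowest control. Its log2 fold change was -0.90 ± 0.18 (SE; edgeR adjusted p = 0.00834), from 1861 ± 352 to 996 ± 242 CPM (SD, n = 4 each). Genes on the opposite strand overlap Egf, and likewise Umod and Slc8a1. Whether counting used strand is not given, so reads of the overlapping genes could not be separated. Casr (chromosome 16, 36493696 to 36562141) was at 40.0, 34.8, 32.2 and 45.6 CPM among controls and at 21.8, 20.3, 22.9 and 17.6 CPM in diabetic libraries. It too did not overlap between groups, with a log2 fold change of -0.89 ± 0.12 (edgeR adjusted p = 0.00125). Umod (chromosome 7, 119462711 to 119479282) was at 3231, 2702, 2447 and 4856 CPM among controls and at 3482, 2552, 3114 and 2344 CPM in diabetic libraries. The ranges overlapped, and the log2 fold change was -0.20 ± 0.22 (edgeR adjusted p = 0.556).

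Control library 4 was the highest of all for Egf, Casr and Umod, as it was for the thick ascending limb markers. Without it the log2 fold changes of Egf and Casr were -0.77 and -0.79, both still called by edgeR, and that of Umod was 0.04. The sodium-potassium-chloride cotransporter gene Slc12a1, which marks the thick ascending limb, was at 878, 702, 630 and 2008 CPM among controls and at 867, 517, 801 and 447 CPM in diabetic libraries (not called). Of the 8 thick ascending limb markers 1, Bsnd, was called, lower (median log2 -0.20, and -0.00 without control library 4).

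Ratios of reads within a library compare genes without any scaling between libraries. They were chosen after the values were seen and are given without a test. There were 57.1, 62.6, 63.3 and 48.5 Egf reads per 100 Umod reads in control libraries 1 to 4, and 37.9, 34.3, 33.1 and 32.4 in diabetic libraries. Control library 4 did not stand above the other controls on this ratio, and the groups did not overlap. Casr reads per 100 Umod reads were 1.24, 1.29, 1.31 and 0.939 in controls and 0.626, 0.794, 0.735 and 0.751 in diabetic libraries, also without overlap. Against Slc12a1 the picture was less separated. Egf reads per 100 Slc12a1 reads were 210, 241, 246 and 117 in controls and 152, 169, 129 and 170 in diabetic libraries, so that control library 4 fell below every diabetic library while the other controls lay above them all. Casr per 100 Slc12a1 reads did the same, at 4.55, 4.96, 5.11 and 2.27 against 2.51, 3.92, 2.86 and 3.94. Umod reads per 100 Slc12a1 reads were 242 to 388 in controls and 389 to 525 in diabetic libraries, which did not overlap but met closely at the control maximum. Egf reads per 100 Casr reads were 4616, 4854, 4816 and 5166 in controls and 6049, 4316, 4501 and 4312 in diabetic libraries. Diabetic library 1 lay above every control and the other 3 below every control.

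**Figure D2:**
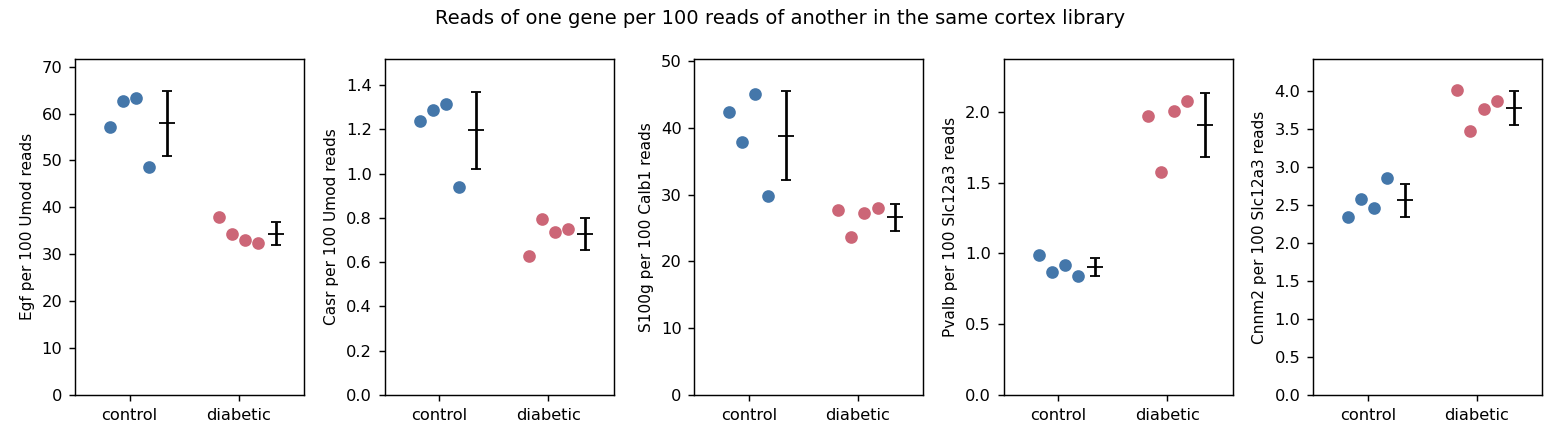
Reads of one gene per 100 reads of another in the same cortex library (vertical axes) for control and diabetic libraries, with mean and SD (bars, n = 4 a group). The ratios of Egf and Casr to Umod and of S100g to Calb1 are lower, and those of Pvalb and Cnnm2 to Slc12a3 higher, in every diabetic library than in any control library.

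Trpm6, Cnnm2 and Pvalb are the members of magnesium transport in the distal convoluted tubule. Trpm6 (chromosome 19, 18749983 to 18892511) encodes the channel through which magnesium enters from the urine. It was at 21.5, 17.2, 17.4 and 20.4 CPM in control cortex and at 19.9, 15.9, 21.3 and 18.1 CPM in diabetic cortex, overlapping throughout (log2 -0.02 ± 0.11, edgeR adjusted p = 0.906). Its stimulating hormone gene Egf, by contrast, was lower in every diabetic library. Cnnm2 (chromosome 19, 46761596 to 46880192) encodes a membrane protein of the blood side that is mutated in inherited magnesium loss. It rose by a small and even step, from 40.5, 42.2, 37.5 and 34.9 CPM to 50.2, 46.5, 48.1 and 48.7 CPM. Its log2 fold change was 0.32 ± 0.07 (edgeR adjusted p = 0.00993), or 1.25-fold. Pvalb (chromosome 15, 78191114 to 78206400) encodes parvalbumin, a calcium-binding protein of the early distal convoluted tubule. It was at 17.2, 14.3, 14.0 and 10.3 CPM among controls and at 24.7, 21.1, 25.7 and 26.2 CPM in diabetic libraries. This was the largest increase among the members in cortex, 1.75-fold (log2 0.81 ± 0.14, edgeR adjusted p = 0.00401).

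The distal convoluted tubule marker Slc12a3, the thiazide-sensitive cotransporter gene, was at 1221 to 1729 CPM in control and 1251 to 1338 CPM in diabetic libraries. The summed level of 6 distal convoluted tubule markers was 1967 to 2593 CPM in control and 1967 to 2034 CPM in diabetic cortex, where 1 was called higher and 2 lower. The lowest control was library 4, the others being at 2336 to 2593 CPM, above every diabetic library, and without library 4 the lower calls were 4 of 6. Per 100 Slc12a3 reads there were 0.992, 0.872, 0.917 and 0.843 Pvalb reads in control libraries 1 to 4 and 1.97, 1.58, 2.00 and 2.08 in diabetic libraries. For Cnnm2 these values were 2.34, 2.58, 2.46 and 2.85 in controls and 4.01, 3.47, 3.76 and 3.87 in diabetic libraries. Both ratios were higher in all diabetic libraries, while those of Trpm6 overlapped, at 1.05 to 1.67 in controls and 1.19 to 1.67 in diabetic libraries.

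Trpv5, Calb1, S100g and Slc8a1 form the calcium route through the cells of the late distal convoluted and connecting tubules. Trpv5 (chromosome 6, 41652173 to 41680769) encodes the entry channel and was at 24.4, 26.3, 21.4 and 18.5 CPM in control and at 19.0, 24.4, 25.5 and 21.6 CPM in diabetic cortex (log2 -0.00 ± 0.13). Calb1 (chromosome 4, 15881264 to 15908064) encodes calbindin-D28k, the larger of the cytosolic calcium buffers. It was at 558, 627, 414 and 407 CPM among controls and 570, 477, 555 and 580 CPM in diabetic libraries (0.12 ± 0.14). Slc8a1 (chromosome 17, 81373105 to 81738377), the sodium-calcium exchanger of the blood side, was at 160, 195, 124 and 111 CPM among controls and at 161, 153, 156 and 162 CPM in diabetic libraries (0.10 ± 0.15). None of these 3 passed the edgeR test (adjusted p = 0.996, 0.597 and 0.705), and the controls of Calb1 and Slc8a1 spread more widely than the diabetic libraries.

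S100g (chromosome X, 162961992 to 162964599) encodes calbindin-D9k, the smaller buffer and a classical vitamin D target. Its window of 250 bases before the start site, at chrX:162964600-162964849 on the minus strand, is shown because it was the 1 member window of 11 with the nuclear receptor hexamer, in capitals.
S100g: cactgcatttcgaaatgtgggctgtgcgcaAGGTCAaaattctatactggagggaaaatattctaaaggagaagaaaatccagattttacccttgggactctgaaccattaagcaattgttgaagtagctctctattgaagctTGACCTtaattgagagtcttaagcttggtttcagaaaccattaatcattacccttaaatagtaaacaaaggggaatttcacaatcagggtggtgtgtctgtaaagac
AGGTCA starts 220 bases before the start site, and its reverse complement TGACCT 107 bases before it. At least 1 match on either strand is present in 14.0% of all windows, and a match is a description of letters, not a binding site. The 11 windows cover 9 of the 10 members. No window was available for Calb1, which was therefore not searched. S100g was at 236, 238, 187 and 121 CPM in control cortex and at 158, 113, 151 and 162 CPM in diabetic cortex. Control libraries 1 to 3 lay above all diabetic libraries and control library 4 lay among them. The log2 fold change of -0.42 ± 0.21 was not called (edgeR adjusted p = 0.208), but without control library 4 it was -0.60 and was called. Relative to Calb1 in the same library, S100g reads were 42.4, 37.9, 45.1 and 29.8 per 100 in controls and 27.7, 23.6, 27.2 and 28.0 per 100 in diabetic libraries, with no overlap. S100g lies within Ctps2, a gene on the opposite strand, so its reads cannot be told apart from those of Ctps2 if counting ignored strand.

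Other genes of these pathways moved in both directions in diabetic cortex. Of 12 genes of the loop pathway 11 were tested; 1 rose, the nutrient-sensing GTPase gene Rragd (log2 0.35 ± 0.10), and 1 fell, the chloride channel subunit gene Bsnd (-0.36 ± 0.10). The median over the list was -0.19. Without control library 4 Rragd was not called and the median was -0.02. Of 16 genes of the distal convoluted tubule magnesium pathway 15 were tested, 1 rose and 3 fell (median -0.09). The magnesium transporter gene Slc41a1 rose from 30.1 ± 2.10 to 37.2 ± 2.45 CPM. The channel kinase gene Trpm7, the close relative of Trpm6, fell from 169 ± 9.76 to 142 ± 11.0 CPM, and Slc41a2 by 0.35 on the log2 scale. Of 20 genes of calcium entry, extrusion and hormone signalling 18 were tested, with 3 higher and 3 lower (median -0.05). S100a10, whose product carries TRPV5 to the cell surface, rose from 34.8 ± 4.52 to 87.3 ± 7.98 CPM (1.33 ± 0.10, edgeR adjusted p = 8.14e-05). The stanniocalcin genes Stc1 (1.21 ± 0.23) and Stc2 (0.99 ± 0.21) rose. The kinase gene Wnk4 (-0.27 ± 0.06), the plasma membrane calcium pump gene Atp2b1 (-0.22 ± 0.05) and the tissue kallikrein gene Klk1 (-0.57 ± 0.15) fell. In the same libraries the summed level of 8 macrophage markers was 216 to 376 CPM in control and 523 to 804 CPM in diabetic cortex, and that of 8 tubular injury markers 881 to 1039 and 1555 to 2774 CPM. Their part in these differences was not tested.

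The genes most like each called member across the 8 cortex libraries were found by the smallest root mean square difference of centred log2 CPM, among 12937 genes with an ordinary name. For Egf these were Cyp51 (0.0914), Slc9a8 (0.111) and Mep1b (0.142), beside a root mean square of 0.528 for Egf about its own mean. For Casr they were Scai (0.109), Cdkl1 (0.113) and Oat (0.119). For Pvalb they were Pigyl (0.106), Rpl41 (0.115) and Bag2 (0.130), and for Cnnm2 Llph (0.0338), Sptlc2 (0.0357) and Ndufb11 (0.0435). None of these is a member or belongs to the pathway lists.

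On the joint scaling of both tissues, in control mice every one of the 10 genes was lower in glomeruli than in cortex (edgeR, adjusted p of 6.77e-05 or less; 39.7% of 16305 genes tested were called lower). Umod stood at 0.617% of its control cortex level in control glomeruli, and Pvalb, Casr, Trpv5, Calb1, S100g and Egf at 0.974 to 1.89%. The shares were higher for Trpm6 (6.60%), Slc8a1 (11.7%) and Cnnm2 (15.5%). For comparison, the median share was 0.759% over the 8 thick ascending limb markers, 0.230% over the 12 proximal tubule markers and 3.35% over the 6 distal convoluted tubule markers. The 2 tables were made on different annotations, so a level set across them can differ for that reason alone. Per length, Umod (8.92 ± 1.16 FPKM, SD, n = 3) and Egf (8.48 ± 0.517) overlapped as the highest members in control glomeruli, and Trpv5 (0.0638 ± 0.0342) and Casr (0.0526 ± 0.0190) were the lowest.

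In isolated glomeruli 9 of the 10 genes rose in diabetic mice, but the samples fell into separate patterns. Trpm6, Casr and Cnnm2 were higher than every control in all 3 diabetic samples. Calb1, Trpv5 and Pvalb were high in samples 1+4 and 3 alone and lay within the control range in sample 2. Egf, Umod and S100g in sample 2 stood just above the highest control. Over all 15238 genes tested 19.4% were called higher and 26.6% had diabetic samples above all controls without overlap, as had 6 of the 10 genes. The median log2 fold change was 3.77 for the 10 genes and 0.01 for all genes. Trpv5 and Pvalb, both among the 9, were below the low-count filter in at least 1 control sample and were tested because of their diabetic samples. The other called genes rose from 2.48-fold (Cnnm2) to 16.0-fold (Casr).

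**Figure D3:**
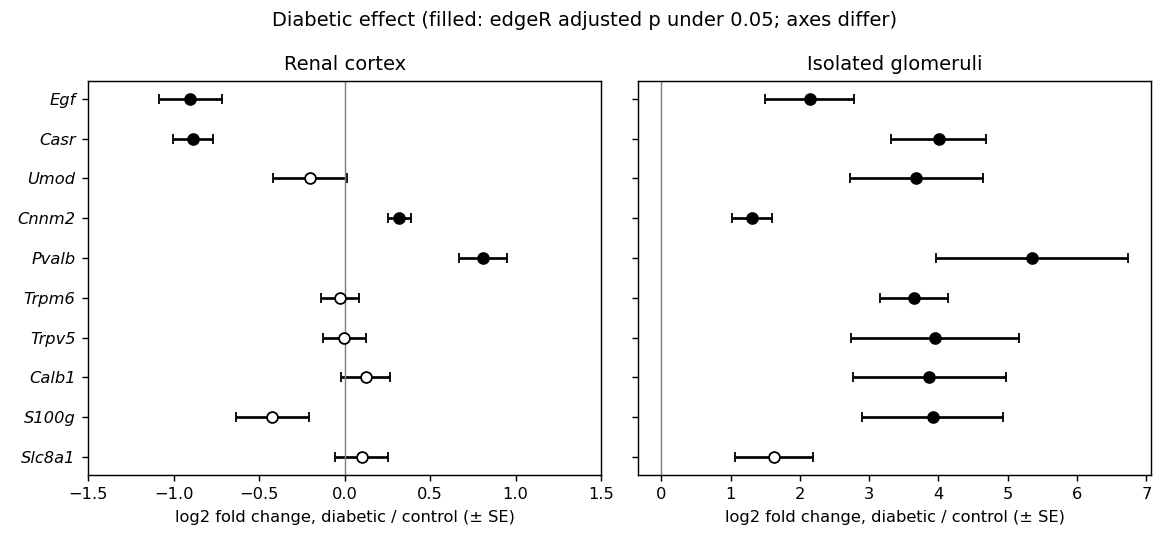
Log2 fold change, diabetic against control, with SE (horizontal bars) for each gene in cortex (left) and glomeruli (right), on axes of different length. Filled points passed edgeR at an adjusted p under 0.05: 4 genes in cortex, in both directions, and 9 in glomeruli, all higher.

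Trpm6 was at 0.913, 2.43 and 1.35 CPM in control glomeruli (samples 1, 2 and 3+4) whereas diabetic samples 1+4, 2 and 3 gave 30.6, 13.3 and 14.6 CPM. The lowest diabetic sample was thus more than 5 times the highest control. Its log2 fold change was 3.64 ± 0.49 (edgeR adjusted p = 0.00241), the smallest adjusted p among the members in glomeruli. Casr was at 0.698, 0.344 and 0.420 CPM in controls while diabetic samples gave 13.7, 2.51 and 7.01 CPM (4.00 ± 0.68, edgeR adjusted p = 0.00545). Cnnm2 was at 6.72, 8.54 and 7.03 CPM in controls against 26.7, 12.4 and 16.0 CPM (1.31 ± 0.29, edgeR adjusted p = 0.0146). Without diabetic libraries 1, 3 and 4, which leaves sample 2 as the only diabetic one and assumes that it varies like the controls, Trpm6 (3.11 ± 0.52, edgeR adjusted p = 0.0289) and Casr (2.40 ± 0.47, 0.0374) were still called. Cnnm2 then stood at 0.76 ± 0.23 (0.0933) and no other member was called, beside 8.56% of all genes called higher.

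The remaining members were highest in sample 1+4 and next highest in sample 3. Values are again for controls 1, 2 and 3+4 against diabetic samples 1+4, 2 and 3. Umod was at 29.3, 22.0 and 24.2 CPM in controls against 642, 30.3 and 296 CPM (log2 3.68 ± 0.96, edgeR adjusted p = 0.0250). Egf was at 43.7, 46.0 and 40.7 CPM in controls against 367, 48.6 and 160 CPM (2.14 ± 0.65, 0.0399), so that the direction of its change was opposite to that in cortex. Calb1 was at 11.1, 6.88 and 5.80 CPM in controls against 235, 6.96 and 103 CPM (3.87 ± 1.11, edgeR adjusted p = 0.0338). S100g was at 3.41, 3.52 and 2.94 CPM and at 101, 4.04 and 43.8 CPM (3.92 ± 1.02, 0.0245). Both calcium buffers were thus low in sample 2. Pvalb had 10, 3 and 12 reads in the controls and was at 14.0, 0.228 and 6.15 CPM in diabetic samples, against at most 0.269 CPM in controls (5.35 ± 1.38, edgeR adjusted p = 0.0239). Trpv5 was at 0.457, 0.132 and 0.292 CPM in controls against 9.67, 0.228 and 3.69 CPM (3.95 ± 1.21, 0.0422). Slc8a1, at 23.5, 20.4 and 20.0 CPM in controls against 118, 20.4 and 57.8 CPM, was not called (1.63 ± 0.56, edgeR adjusted p = 0.0610). Without control sample 1, and likewise without control sample 3+4, Trpm6 and Casr were the only members called. Without control sample 2 or diabetic sample 1+4 these and Cnnm2 were called, without diabetic sample 3 these with S100g, Pvalb and Umod, and without diabetic sample 2 all 10.

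**Figure D4:**
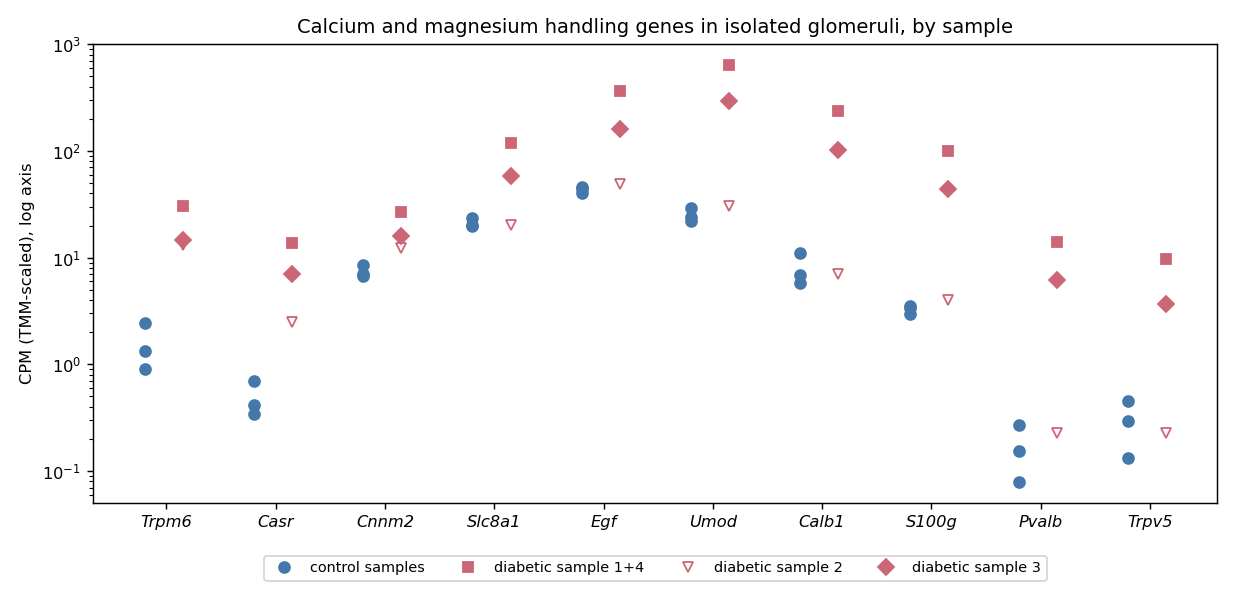
Level of each gene in isolated glomeruli (CPM, log axis) in the 3 control samples (circles) and in diabetic samples 1+4, 2 and 3 (other symbols). Sample 2 (open triangles) lies above the controls for Trpm6, Casr and Cnnm2, just above them for Egf, Umod and S100g, and within their range for the other 4 genes.

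Markers of the tubule moved with these genes. Slc12a3 was at 17.1 to 19.4 CPM in control glomeruli against 716, 22.7 and 322 CPM in diabetic samples 1+4, 2 and 3, and Slc12a1 at 5.79 to 12.1 CPM and at 70.1, 9.84 and 33.0 CPM. Of 8 thick ascending limb markers 7 rose, of 6 distal convoluted tubule markers 4, and of 12 proximal tubule markers 8, and the other markers of these lists were not called. To set the members beside them, the rise of each above the control mean was expressed as a percentage of its mean in diabetic cortex. These percentages use CPM scaled over both tissues together in the 4-group model, and so differ from those the CPM printed for each tissue would give. The median over proximal tubule markers was 6.04, 0.0175 and 2.78% in samples 1+4, 2 and 3. Over thick ascending limb markers it was 27.4, 2.56 and 9.63%, and over distal convoluted tubule markers 37.9, 0.552 and 18.4%. Umod rose by 17.8, 0.127 and 7.69% of its cortex level, Calb1 by 34.4, -0.166 and 14.2%, and Pvalb by 46.9, 0.187 and 20.0%. Trpm6 stood apart from all of these with 128, 49.4 and 56.5%. Casr (53.1, 7.76 and 25.8%) and Cnnm2 (33.3, 7.86 and 14.6%) also had a rise in sample 2 above the medians of the 3 marker lists there. The part of tubule RNA in the rises of samples 1+4 and 3 was not tested, and in sample 2 the defining markers Slc12a1 and Slc12a3 stood within and just above their control ranges. Some other tubule markers were higher there. With sample 2 as the only diabetic sample, log2 fold changes were 5.56 for Cldn16, 5.26 for Cldn19 and 2.22 for Bsnd. The median over the 8 thick ascending limb markers was 1.72. Scnn1b, Hsd11b2 and Avpr2 stood at 2.44, 3.01 and 3.55, with a median of 2.39 over 7 tested markers of connecting tubule and collecting duct. Lrp2 stood at 2.03, with a median of 0.16 over 12 proximal tubule markers. Every control of Cldn16 and Avpr2 lay below the low-count filter of 0.246 CPM, so both were tested because sample 2 was high. At least 1 control of Cldn19 lay below it too. Markers of other kinds moved in all 3 diabetic samples. The summed level of 8 tubular injury markers was 691 to 1537 CPM in control glomeruli and 6266, 6823 and 6141 CPM in samples 1+4, 2 and 3. With all samples 4 of the 8 were called, all higher. With sample 2 as the only diabetic sample the median log2 fold change over the 8 was 3.29. Clu, Krt20 and Sox9 then stood at 5.90, 7.29 and 2.90, while Vcam1 (-0.23) and Cdkn1a (-0.21) were slightly lower. The sum of 6 smooth muscle and renin cell markers was 16910 to 19296 CPM in controls against 3171, 3722 and 6024 CPM. Most of this sum in controls was Acta2 (9733 ± 734 CPM) and Tagln (7392 ± 1008 CPM). The renin gene Ren1 went the other way, at 17.8 to 22.9 CPM in controls and 15.3 to 59.8 CPM in diabetic samples. Its log2 fold change was 1.13 ± 0.47 (not called), and 1.59 with sample 2 as the only diabetic sample. The part of all these markers in the rise of Trpm6 and Casr in sample 2 was not tested.

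**Figure D5:**
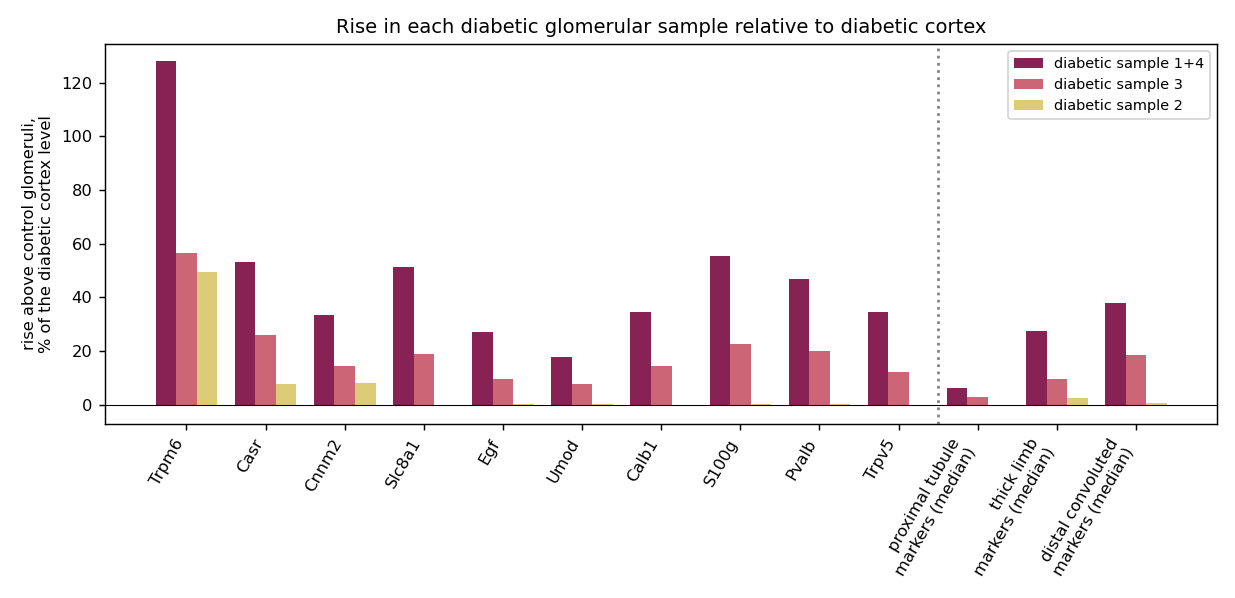
Rise above the mean of control glomeruli in each diabetic glomerular sample, as a percentage of the mean level in diabetic cortex (vertical axis), for each gene and, right of the dotted line, as the median over 3 lists of tubule markers. Trpm6 reaches 128, 49.4 and 56.5% in samples 1+4, 2 and 3, while Umod, Calb1 and Pvalb are near 0 in sample 2.

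Most genes of the loop pathway rose in diabetic glomeruli. Of 12 listed, 10 were tested, 9 rose and the other was not called (edgeR, median log2 4.02). All thick ascending limb markers except Irx1 are also in this list, so both results rest largely on the same genes. The tight junction genes Cldn16 and Cldn19, whose products together form the pore for magnesium and calcium in the thick ascending limb, were among them. Cldn19 was at 0.134 to 0.265 CPM among controls against 8.10, 6.69 and 2.41 CPM in the diabetic ones (5.02 ± 0.59, edgeR adjusted p = 0.00164). Cldn16 had 0, 1 and 8 reads in the controls and was at 2.84, 2.63 and 0.786 CPM in diabetic samples. Both were thus high in sample 2, where their rise was 25.0% (Cldn16) and 30.6% (Cldn19) of the diabetic cortex level. These genes were picked by the smallest adjusted p in their list, with Bsnd (4.18 ± 0.75). Without diabetic libraries 1, 3 and 4 the median log2 of this list was 1.07. Cldn16 then stood at 5.56, Cldn19 at 5.26 and Bsnd at 2.22. Every control of Cldn16 and at least 1 of Cldn19 lay below the low-count filter of 0.246 CPM. In the fit of all samples both genes were thus tested because of their diabetic samples.

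In the distal convoluted tubule magnesium pathway 14 of 16 genes were tested, 10 rose and 1 fell (median log2 1.03). Pcbd1 rose by 1.77 ± 0.22 on the log2 scale and the magnesium transporter relative Cnnm4 by 0.87 ± 0.10. Slc41a2 fell (-1.12 ± 0.10). Without diabetic libraries 1, 3 and 4, 6 genes of this list were called higher, Pcbd1 and Cnnm4 among them, and 1 lower (Slc41a2). Of 20 genes of calcium entry, extrusion and hormone signalling 16 were tested, with 6 higher and 2 lower (median 0.32). The klotho gene Kl (4.17 ± 0.97), the calcium channel gene Trpv6 and Cyp27b1, which activates vitamin D, rose, and the annexin gene Anxa2 fell (-0.57 ± 0.11). Trpv6 had 0, 2 and 1 reads in the controls and 83, 22 and 31 in diabetic samples, and Cyp27b1 had 1, 5 and 9 reads against 48, 17 and 21. All controls of both lay below the low-count filter of 0.246 CPM, so that both were tested because of their diabetic samples, and their fitted folds are not given. Without diabetic libraries 1, 3 and 4 edgeR called 0 of this list (5 at an unadjusted p under 0.05), and the median was 0.33. Kl then stood at 0.91 ± 0.20 (edgeR adjusted p = 0.05005), and Trpv6, still at 22 reads in sample 2, just missed the threshold (0.0531).

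The diabetic effect itself differed between tissues for 9 of the 10 genes, all in the direction of a larger increase in glomeruli, beside 18.8% of 16305 genes called in that direction (edgeR, 4-group model). Tubule markers did likewise: 12 of 12 of the proximal tubule, 8 of 8 of the thick ascending limb and 4 of 6 of the distal convoluted tubule were called higher. Their median log2 differences were 3.93, 4.35 and 2.71, beside 3.83 for the 10 members. Among the members the difference was largest for Casr, which fell in cortex and rose in glomeruli (log2 4.93 ± 0.64, adjusted p = 0.000115), and the adjusted p was smallest for Trpm6 (3.69 ± 0.45, 5.55e-05). Slc8a1 did not pass (1.55 ± 0.58, adjusted p = 0.0573). Without glomerular diabetic libraries 1, 3 and 4 this difference was called for 3 genes, Trpm6 (3.08 ± 0.37), Casr (3.23 ± 0.33) and Egf (1.02 ± 0.32), beside 10.3% of all genes.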

How the data were processed

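The authors deposited raw read counts per gene symbol for glomeruli. For cortex the authors deposited estimated counts per Ensembl identifier, already whole numbers (judged from the values), used without further rounding. The deposited FPKM values of both tissues, made by the authors, served for levels per length and as an alternative. Per the submitters' processing notes the builds were GRCm38 and mm10; the aligner, counter and strandedness were not given in the sources used here. Library construction used the SMARTER mRNA-Seq kit (labels' protocols). Symbols and positions came from GENCODE M21 on GRCm38 (31953 of 34264 cortex identifiers matched, and 19796 glomerular symbols directly and 48 by synonym); 18796 genes were joined.

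Near-identical glomerular libraries (over 5 times closer by chi-square per gene than other pairs) were summed. Genes were tested with edgeR 4.0.16 in R 4.3.3 (filterByExpr, TMM, glmQLFit with robust dispersion, glmQLFTest), with Benjamini-Hochberg adjustment over all genes called under 0.05. Cortex and glomeruli had separate fits, and comparisons between tissues in a 4-group model. SEs were taken from the F statistic. Alternatives used library totals, RLE factors, no filter, DESeq2 1.42.0, limma 3.58.1 on log2(FPKM + 1) or log2(FPKM + 0.1), a replicate block and samples left out. On simulated counts, 75% of genes changed 2-fold (log2 of 1) were recovered for the cortex comparison (18723 genes) and 66% for glomeruli (15043 genes). For the difference between tissues 43% were recovered (16027 genes). Only genes above a low mean level were changed, and samples of a group were drawn as like replicates. Recovery for genes as low as Pvalb, Trpv5 and Casr in control glomeruli, or with unlike diabetic samples, was thus not measured. Reads have no molecular identifiers, so counts are of reads and not of molecules.

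The members and lists were chosen with earlier results of these data known. The genes named are the 10 members, up to 4 genes a list with the smallest adjusted p, and the 3 genes most like each called member in cortex (of mean log2 CPM at least 0); tubule marker genes are given as values beside results, and Klk1, Wnk4 and Atp2b1 to complete a count. Some listed genes count in the totals but are not reported here by name.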

Additional observations from a re-analysis of the deposited data

Results flagged for a closer look

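For 9 of the 10 genes the diabetic effect differed between glomeruli and cortex by the test of the difference itself (edgeR, 4-group model). Over all 16305 genes tested 18.8% were called higher by this test. So were 12 of 12 proximal tubule markers and 8 of 8 thick ascending limb markers, so the result is not particular to these genes. On the log2 scale the differences of the 9 genes, glomeruli minus cortex, were 4.93 for Casr, 4.58 for Pvalb, 4.37 for S100g, 3.99 for Trpv5, 3.91 for Umod, 3.76 for Calb1, 3.69 for Trpm6, 3.06 for Egf and 1.01 for Cnnm2. For Egf and Casr the tissues moved in opposite directions. The Egf rise in glomeruli rested on diabetic samples 1+4 and 3, since sample 2 was at 48.6 CPM against at most 46.0 CPM in controls. When 1 sample was left out, Egf kept its glomerular call in 1 of 6 fits and Casr in 6 of 6. No cortex library of any member stood apart from the other 3 of its group by Dixon's criterion for 4 samples, and groups of 3 glomerular samples were not examined this way.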

How the results depend on the processing

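In cortex the 4 genes called kept their direction and their call under every alternative run, and leaving out 1 library gave 4 to 5 members called, S100g being added without control library 4. Uncalled members near 0 changed sign. Trpm6 was at 0.0171 with library totals, 0.00692 with log2(FPKM + 1), filtered or not, and 0.00998 with log2(FPKM + 0.1). Trpv5 was at 0.0541 with library totals, 0.00139 with RLE factors and with DESeq2, 0.00365 without a filter, 0.0345 with log2(FPKM + 1), filtered or not, 0.0383 with log2(FPKM + 0.1) and 0.00167 with the replicate block. Leaving out 1 cortex library gave -0.0909 to 0.0478 for Trpm6, -0.088 to 0.0786 for Trpv5, -0.016 to 0.265 for Slc8a1 and -0.325 to 0.0398 for Umod.

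In glomeruli the count of 9 members called fell to 3 without a filter on low counts, 3 with log2(FPKM + 1) or log2(FPKM + 0.1), 2 with log2(FPKM + 1) and no filter, and 2 without diabetic libraries 1, 3 and 4. Leaving out 1 sample gave 2 to 10. The cause was not tested, except that fewer samples were fitted. Without libraries 1, 3 and 4 Trpv5 (-0.332), Calb1 (-0.155) and Slc8a1 (-0.0354) turned lower. The difference between tissues was then called for 3 members, with Trpv5 at -0.404, Calb1 at -0.338, Slc8a1 at -0.201 and Pvalb at -0.384; leaving out 1 sample gave 9 to 10. All 10 members were lower in control glomeruli than in control cortex under every alternative run. Same-numbered libraries did not deviate together (correlations of -0.157 to 0.073). Samples paired by number need not deviate together, so this cannot decide whether the numbers pair them. With the replicate block 4 members were called in cortex. In glomeruli and for the difference the block was fitted with the near-identical libraries kept separate, as if replicates, and called 9 and 10 members, Slc8a1 among them (Pvalb was not tested in the former). Slc8a1 was also called with separate libraries and no block. Higher calls over all genes were 51.6% of calls in glomeruli (72.5% with library totals, 70.7% with log2(FPKM + 1)), 53.6% for the difference (69.0% with library totals) and 53.7% in cortex (65.5% with log2(FPKM + 1)). Library totals moved the median log2 of all genes to 0.20 in glomeruli and 0.19 for the difference. All genes called in cortex, 3856, were 2375 with the block, 2401 with log2(FPKM + 1) unfiltered, and 2528, 2538 and 2542 without diabetic library 2, 3 or 4. Without glomerular libraries 1, 3 and 4 they were 2293 of 5717 in glomeruli and 3757 of 5714 for the difference. The lowest members rest on few reads in control glomeruli (25 for Pvalb and 45 for Trpv5 over the group).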
